A study of Mus musculus with 16 samples.

Results

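The B cell follicle and germinal centre genes are 32 genes, picked by symbol, out of the 46078 genes in the table of counts. They cover B cell surface proteins (10 genes), kinases and adaptors behind the B cell receptor (4), transcription factors (7), chemokines and their receptors (5), and tumor necrosis factor family or costimulatory proteins together with the vessel addressin Madcam1 (6). Their RNA was followed library by library in the ileum mucosa of 16 C57Bl/6 mice, with 4 mice for each combination of genotype and labelled sex. Slfn3KO mice carried a germline knockout of Slfn3, and WT mice were their littermates. The labels give an age of 8 weeks for all of them and name no treatment, while the study's methods give an older age. The study also pair-fed Slfn3KO mice to WT mice, and whether the sequenced mice were among them is not stated. The comparison asks what the loss of Slfn3 does to RNA levels in the mucosa of each sex.

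The small intestine holds lymphoid follicles, grouped as Peyer's patches or isolated in the mucosa. Stromal cells and follicular dendritic cells inside a follicle secrete Cxcl13, which draws in B cells carrying its receptor Cxcr5, and lymphotoxin made by lymphocytes keeps the stroma in place. After antigen contact and help from T cells, some B cells form a germinal centre, where Bcl6 holds their transcription program and where they divide and are selected. Follicles lie in patches along the gut.

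The targeted gene, Slfn3, was barely detected in either genotype. Female Slfn3KO 1 to 4 held 0, 0, 0 and 2 counts of it and male Slfn3KO 1 to 4 held 1, 0, 0 and 0. The counts were 1, 4, 7 and 13 for female WT libraries and 1, 2, 19 and 0 for male WT libraries. No Slfn3KO library held more than 2 counts, but male WT 4 held 0 and 3 other WT libraries held 1 or 2. Between 20823279 and 30813117 counts were assigned per library, and levels are given in CPM, which are counts relative to library totals scaled by TMM. In these units 3 counts, used as the floor, correspond to 0.1 to 0.151 CPM depending on the library, for counting error only.

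In 4 WT libraries the sex transcripts went against the label. Xist, which is made from the inactive X chromosome of females, was 620, 628, 552 and 519 CPM in female Slfn3KO 1 to 4 and 311, 409, 0.124 and 0 CPM in female WT. It was 0.252, 0.238, 0.247 and 0.237 CPM in male Slfn3KO and 0.234, 0.315, 437 and 401 CPM in male WT. The Y-linked Ddx3y was 0.0502, 0.0846, 42 and 49.7 CPM in female WT and 35.5, 45.1, 0 and 0.0415 CPM in male WT, with 0, 0.0409, 0 and 0 CPM in female Slfn3KO and 40.5, 46.3, 50.3 and 42.9 CPM in male Slfn3KO. Kdm5d, Uty and Eif2s3y gave the same picture, each above 22 CPM in female WT 3 and 4 and below 0.1 CPM in male WT 3 and 4. Labels were kept, and the counts and medians of the members are also given after leaving out WT 3 and WT 4 of either labelled sex. All 16 libraries expressed the epithelial genes of a mucosa, with Epcam between 2185 and 4711 CPM.

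Follicle RNA differed widely between mice of the same group. The 32 members together made 51.3, 46.2, 1690 and 363 CPM in male WT 1 to 4 and 48.2, 61.5, 215 and 298 CPM in male Slfn3KO. Their sum was 70.2, 282, 876 and 1104 CPM in female WT and 99.9, 60.5, 133 and 60 CPM in female Slfn3KO. In both labelled sexes the highest sums were in WT 3 and 4, the libraries whose sex transcripts went against the label. The lowest female WT sum lay within the range of the female Slfn3KO sums, and the lowest male WT sum was below all 4 male Slfn3KO sums. Of the 31 members with any count, 29 were highest in male WT 3, and female WT 3 was among the 4 highest libraries for all 31 of them. Female WT 4 and male WT 4 were among the 4 highest for 30 and 23 members. At the other end, male Slfn3KO 1 had 3 counts or more for only 22 members and ranked between 13 and 16 among the 16 libraries for 28, and male WT 2 did so for 26. In bulk RNA, fewer B cells or smaller follicles cannot be told apart from less RNA per cell.

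**Figure D1:**
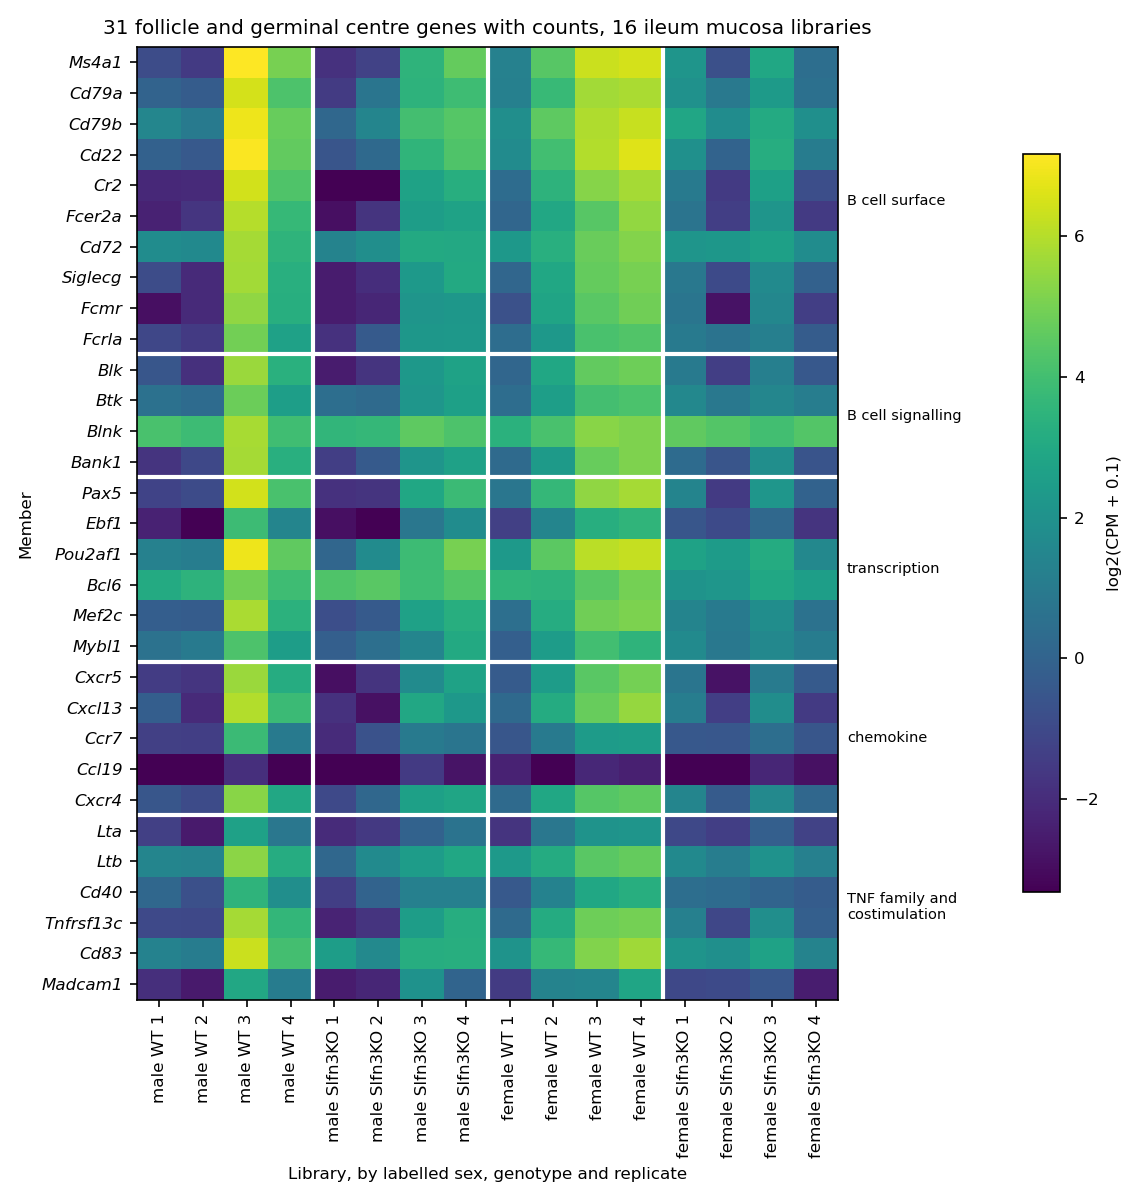
Level of the 31 members with counts (rows, by role) in the 16 libraries (columns, by labelled sex, genotype and replicate), as log2 of CPM plus 0.1. The columns of male WT 3, female WT 3 and female WT 4 are bright for nearly all members, male Slfn3KO 1 and 2 and male WT 1 and 2 are dark, and the rows of Blnk and Bcl6 vary least among the 30 members tested.

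Over both sexes, 30 of the 32 members passed the filter on low counts and all 30 had a log2 fold change under 0, as did 50.7% of all genes tested, with a median log2 fold change of -2.43 against -0.00 over all genes. The chemokine Cxcl13 had the most negative value (-3.16, standard error 1.12) and the adaptor Blnk the one nearest 0 (-0.47, standard error 0.31). Calls required 1.5-fold or more and an adjusted p (Benjamini-Hochberg) under 0.05 in edgeR's quasi-likelihood test, which called 0 members and 0 of 14822 genes (0%). At an unadjusted p under 0.05, 27 members were lower and 0 higher, against 7.10% and 4.84% of all genes tested. Here and in each labelled sex such counts are not separate results, because most members shared their highest libraries. Members were also chosen with earlier results of these data known. The study had listed Cd79a, Cd79b, Cd72, Btk, Cxcr4, Lta, Ltb and other members as decreased in Slfn3KO. DESeq2 called 1 member, Ltb (log2 fold change -2.07, adjusted p = 0.0369, where the alternatives ranged from 0.0369 to 0.824), and 55 genes in all (0.371%). Without male WT 3 the count at an unadjusted p under 0.05 was 2 (Cd72 and Ltb), or 2 of 30 members against 8.94% of genes. Without the WT libraries 3 and 4 it was 0, against 876 of 15093 genes (5.80%), and the median turned to 0.17, with 25 members above 0 and 5 below.

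In labelled males, 29 of 30 members and 50.4% of genes had a negative log2 fold change (members' median -1.98), the exception being Bcl6 (0.24, standard error 0.38). The edgeR test called 0 members and 0 of 14124 genes (0%), and at an unadjusted p under 0.05 it gave 0 members in either direction, against 3.84% of genes, 1.98% lower and 1.86% higher. DESeq2 called 14 genes (0.0991%), none of them a member. For no member did the 4 Slfn3KO libraries lie wholly below or wholly above the 4 WT libraries, a separation seen in 1.23% and 1.15% of genes tested. Without male WT 3 the median was 0.01, and 1 of 30 members (Bcl6) and 2.50% of genes had an unadjusted p under 0.05. Without male WT 2 these were 2 of 30 members (Cd72 and Cd83) and 4.00% of genes. Replicate numbers are not stated to pair mice, and male WT 3 and 4 had sex transcripts against the label. In an alternative edgeR fit with that number as a block, 7 of 30 members, all 7 lower, had an unadjusted p under 0.05. So did 936 genes (6.63%). In that fit the members' median moved from -1.98 to -1.05 and edgeR called 0 genes. Without both male WT 3 and 4 the median turned to 2.84 and all 30 members were above 0, with an unadjusted p under 0.05 for 2 of them, Bcl6 and Cd83, against 1039 of 14551 genes (7.14%).

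In labelled females, the 30 members had a median log2 fold change of -3.02, from -3.82 for Ms4a1, which encodes CD20, to -0.34 for Blnk, and all 30 values were under 0, as for 51.1% of genes. The edgeR test called 0 members and 0 of 14064 genes (0%). At an unadjusted p under 0.05 there were 29 members lower and 0 higher, where 8.56% of all genes were lower and 8.58% higher, and Blnk was the member that missed it. DESeq2 called 25 of the 30 members, all lower, among 506 genes (3.60%). All 4 Slfn3KO libraries lay below all 4 WT libraries for 2 members, Bcl6 and Ltb, against 3.03% of genes. Without female WT 3 and 4 the median was -1.28, and Bcl6 and Ltb had an unadjusted p under 0.05, while 3508 of 14634 genes (24.0%) passed that rule.

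The difference between the labelled sexes, as female minus male log2 fold change, was negative for 29 of 30 members and for 49.3% of genes. No member was called by edgeR, nor any of 14822 genes (0%), and DESeq2 called 24 genes (0.162%) with no member among them. Bcl6 was the 1 member with an unadjusted p under 0.05 and a negative value, as were 5.26% of genes. Without the WT libraries 3 and 4, edgeR called 359 of 15093 genes (2.38%), of which Bcl6 was the 1 member, and 18 members had an unadjusted p under 0.05 against 4057 genes (26.9%). Without male WT 3 alone, 4 of 30 members passed that rule (Bcl6, Cd72, Cd83 and Ltb), as did 10.3% of genes.

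**Figure D2:**
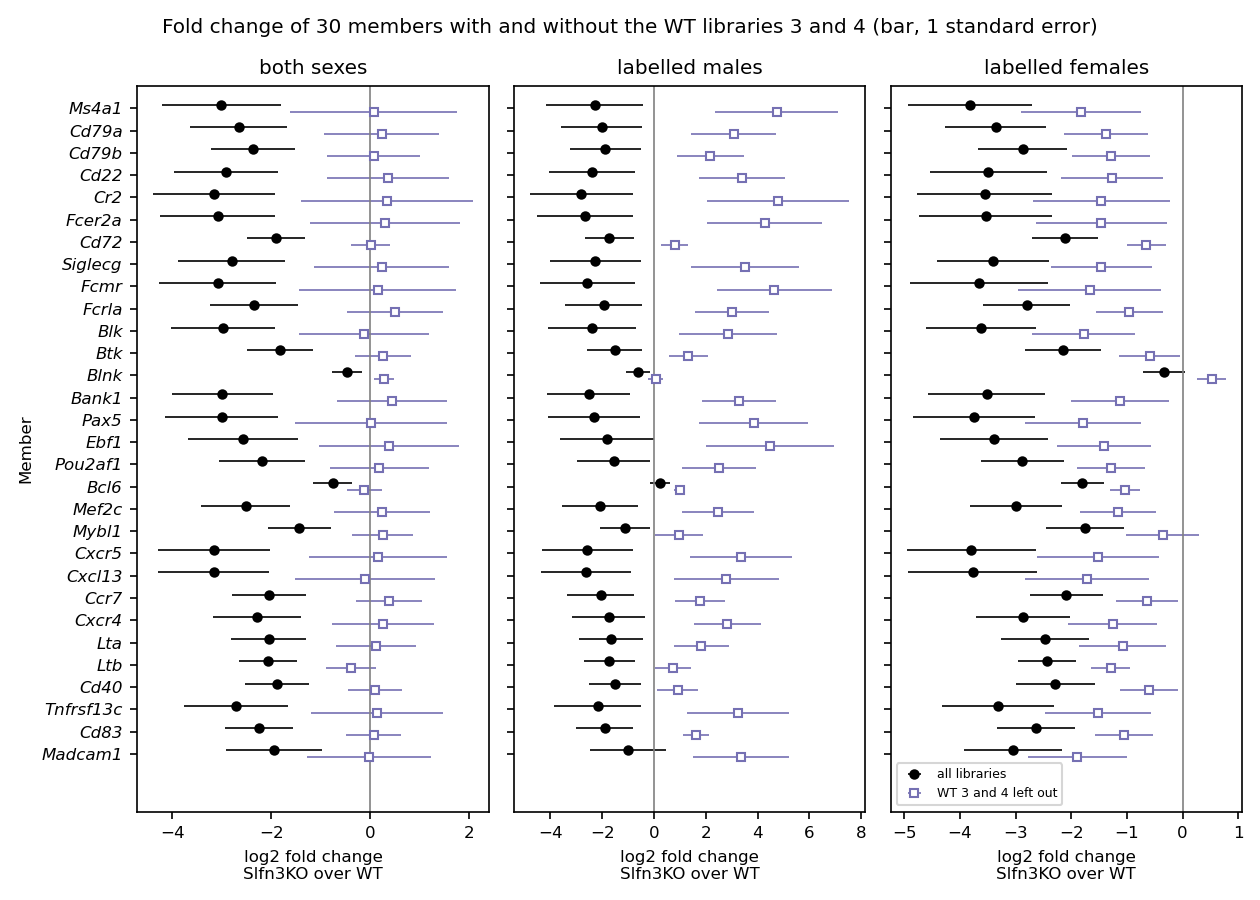
Log2 fold change of Slfn3KO over WT (horizontal axis) for the 30 members tested (vertical axis), in both sexes, labelled males and labelled females, from all libraries (filled circles) and with the WT libraries 3 and 4 left out (open squares); bars are 1 standard error. In labelled males the open squares lie to the right of 0 for all 30 members, and in labelled females to the left for 29.

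Among the B cell surface proteins, the most abundant per exon length were Cd79b (mean 16.4 RPKM over the 16 libraries) and Cd79a (11.7 RPKM), the paired signalling chains of the B cell receptor. Cd79b (ENSMUSG00000040592, chromosome 11, 106311341 to 106314762, minus strand in mm10) was 7.18, 3.35, 8.43 and 3.65 CPM in female Slfn3KO 1 to 4 and 3.56, 23.8, 60.7 and 76.6 CPM in female WT 1 to 4. Cd79b was 1.04, 2.62, 16.4 and 20.9 CPM in male Slfn3KO 1 to 4 and 2.67, 1.86, 118 and 26.1 CPM in male WT 1 to 4. The 3 highest levels were in WT, but female WT 1 and male WT 1 and 2 were as low as Slfn3KO libraries, and the groups overlapped in both labelled sexes. Cd79a (ENSMUSG00000003379, chromosome 7, 24897381 to 24902197, plus strand) was 3.83, 1.8, 5.16 and 1.36 CPM in female Slfn3KO 1 to 4 and 2.26, 13.4, 52 and 56.6 CPM in female WT 1 to 4. Cd79a was 0.252, 1.59, 10.9 and 15 CPM in male Slfn3KO 1 to 4 and 0.901, 0.736, 88.9 and 18.6 CPM in male WT 1 to 4. Cd79a and Cd79b put the libraries in nearly the same order, with male Slfn3KO 1 lowest and male WT 3 highest for each. The log2 fold change over both sexes was -2.36 for Cd79b (standard error 0.85, unadjusted p = 0.0137, adjusted p = 0.333 by edgeR) and -2.65 for Cd79a (standard error 0.98, adjusted p = 0.333). Without the WT libraries 3 and 4 both turned, to 0.07 and 0.23.

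The other 8 surface genes followed. They were Ms4a1, the inhibitory lectins Cd22 and Siglecg, the complement receptor Cr2, the low-affinity IgE receptor Fcer2a, the inhibitory coreceptor Cd72, the IgM receptor Fcmr and Fcrla, a relative of the Fc receptors. All 8 had the same 4 highest libraries, male WT 3, female WT 4, female WT 3 and male WT 4 in that order, as did Cd79a and Cd79b. Ms4a1 reached 143 CPM in male WT 3, 793-fold above male Slfn3KO 1, where it had 5 counts. Cr2 had 0 counts in male Slfn3KO 1 and 2 and 2566 in male WT 3, so that male WT 3 was at least 807-fold higher than the floor of male Slfn3KO 1. Cd72 had the narrowest span of the 10, 22-fold, with 2.45 CPM left in male Slfn3KO 1. The log2 fold changes of the 10 over both sexes lay between -3.15 for Cr2 and -1.90 for Cd72, and between 0.01 and 0.51 with the WT libraries 3 and 4 left out.

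Inside the B cell, Blk is a Src family kinase activated at the receptor, Btk a kinase downstream of it, Blnk the adaptor that links them to calcium signalling, and Bank1 a scaffold. Blnk (ENSMUSG00000061132, chromosome 19, 40928927 to 40994535, minus strand) was the most abundant of the 4 per length (3.66 RPKM). Blnk was 24.1, 20.6, 15.7 and 20.2 CPM in female Slfn3KO 1 to 4 and 10.2, 17.6, 39 and 34.9 CPM in female WT 1 to 4. Blnk was 11.9, 12.5, 23.5 and 18.9 CPM in male Slfn3KO 1 to 4 and 17.7, 14.4, 54.5 and 15.2 CPM in male WT 1 to 4. It had 203 counts or more in every library, and female Slfn3KO 1 was higher than female WT 1 and 2. Its log2 fold change was -0.47 over both sexes (standard error 0.31, adjusted p = 0.569 by edgeR) and 0.28 without the WT libraries 3 and 4. Blk (ENSMUSG00000014453, chromosome 14, 63372837 to 63417187, minus strand; 3.46 RPKM) was 1.89, 0.286, 2.21 and 0.642 CPM in female Slfn3KO 1 to 4 and 1, 7.53, 24.8 and 29 CPM in female WT 1 to 4. Blk was 0.0721, 0.198, 4.76 and 6.41 CPM in male Slfn3KO 1 to 4 and 0.6, 0.175, 47.6 and 9.89 CPM in male WT 1 to 4. Blk had the same 4 highest libraries as the surface genes, and male Slfn3KO 1, with 2 counts, was under the floor. Its log2 fold change was -2.97 over both sexes (standard error 1.05, adjusted p = 0.333 by edgeR), and -0.12 without the WT libraries 3 and 4. Btk and Bank1 spanned 24.3-fold and 271-fold between their lowest and highest libraries.

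Of the transcription factors, Pou2af1 (ENSMUSG00000032053, chromosome 9, 51213690 to 51240079, plus strand), the coactivator that B cells use with octamer-binding factors, was the most abundant per length (9.55 RPKM). Pou2af1 was 6.53, 5.27, 8.7 and 2.85 CPM in female Slfn3KO 1 to 4 and 4.92, 23.1, 68.1 and 74.7 CPM in female WT 1 to 4. Pou2af1 was 1.01, 3.25, 14.4 and 32.5 CPM in male Slfn3KO 1 to 4 and 2.34, 2.1, 118 and 24.3 CPM in male WT 1 to 4. Male Slfn3KO 4 was above male WT 4 and the groups overlapped in both labelled sexes. For Pou2af1 the log2 fold change over both sexes was -2.19 (standard error 0.87, adjusted p = 0.337 by edgeR), and 0.18 without the WT libraries 3 and 4. Ebf1, which with Pax5 commits cells to the B lineage, and Mef2c, a factor of B cell activation, had log2 fold changes of -2.57 and -2.51 over both sexes. Pax5 had -2.33 in labelled males and -3.75 in labelled females. Mybl1, which is expressed by dividing germinal centre cells, had -1.43. With the WT libraries 3 and 4 left out, the 6 transcription factors tested lay between -0.12 and 0.38 over both sexes. Mef2b, a germinal centre factor, had 0 counts in all 16 libraries; 1275 of its 1342 exon bases lie in exons of Borcs8 on the same strand, and whether reads from Mef2b were lost there was not tested.

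Bcl6 (ENSMUSG00000022508, chromosome 16, 23965052 to 23988852, minus strand; 2.22 RPKM), the repressor that holds the germinal centre program and is also made outside B cells, was also present in libraries with almost no B cell RNA. Bcl6 was 4.08, 4.49, 7.42 and 5.81 CPM in female Slfn3KO 1 to 4 and 11.5, 10.8, 22.3 and 31.2 CPM in female WT 1 to 4. Bcl6 was 19.3, 21.9, 14.9 and 20.1 CPM in male Slfn3KO 1 to 4 and 8.31, 11, 30 and 14.7 CPM in male WT 1 to 4. In labelled females every Slfn3KO library was below every WT library, and in labelled males all 4 Slfn3KO libraries were above WT 1, 2 and 4 and below WT 3. Male Slfn3KO 1 and 2, which had almost no Ms4a1 (5 and 8 counts), held 537 and 553 counts of Bcl6. The group values were 5.45 ± 1.5 CPM (SD, n = 4) and 19 ± 9.72 CPM (SD, n = 4) in labelled female Slfn3KO and WT, and 19.1 ± 2.97 CPM (SD, n = 4) and 16 ± 9.7 CPM (SD, n = 4) in labelled male Slfn3KO and WT. The log2 fold change was -1.80 in labelled females (standard error 0.38, adjusted p = 0.236 by edgeR) and -1.81 by DESeq2 (adjusted p = 0.00105), with adjusted p from 0.00105 to 0.554 over the alternatives. In labelled males it was 0.24 (standard error 0.38, adjusted p = 0.939 by edgeR). The difference between the labelled sexes was -2.05 (standard error 0.56, unadjusted p = 0.00237, adjusted p = 0.441 by edgeR). Without the WT libraries 3 and 4 the difference was -2.01 (standard error 0.35) and passed the edgeR threshold (adjusted p = 0.0429), with -1.04 in labelled females and 0.99 in labelled males. Over all alternatives the adjusted p of the difference ranged from 0.0429 to 0.705, the highest without female Slfn3KO 1.

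**Figure D3:**
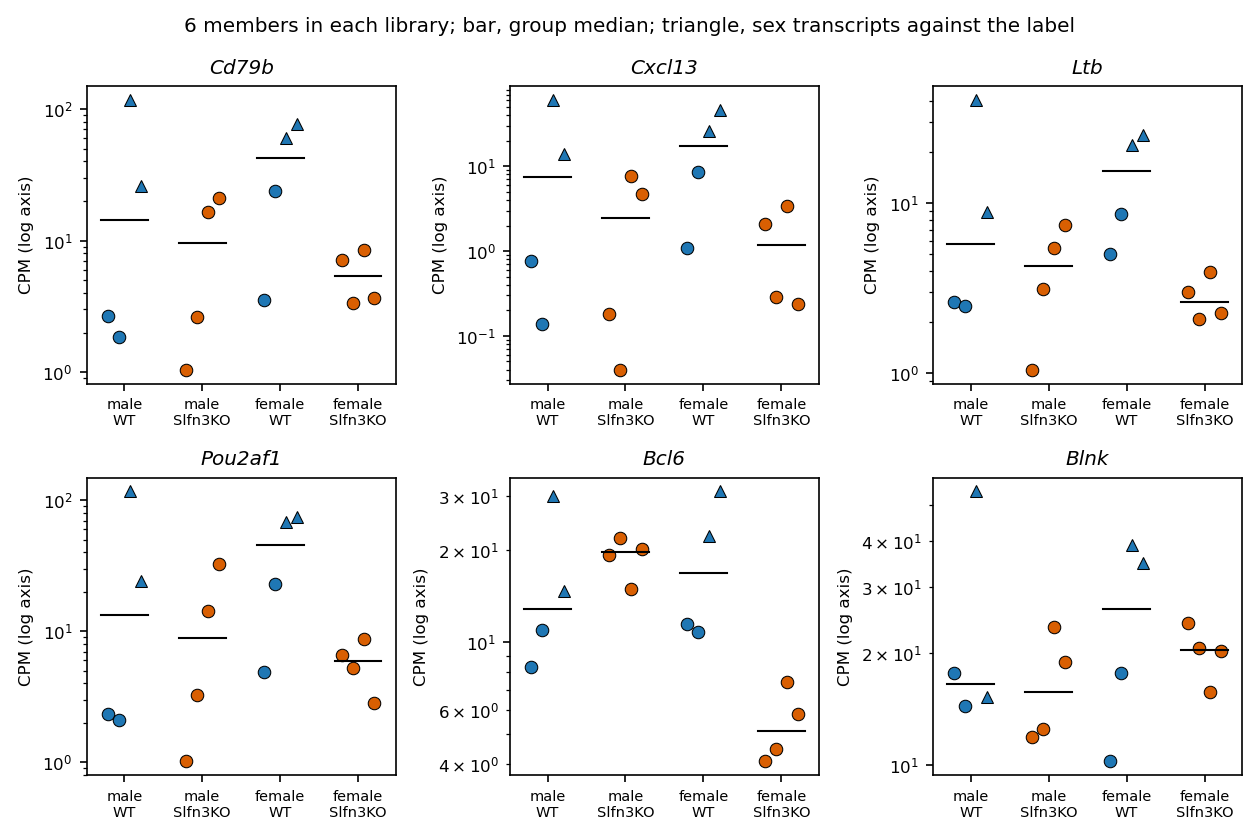
CPM (log axis) of Cd79b, Cxcl13, Ltb, Pou2af1, Bcl6 and Blnk in each library by labelled sex and genotype; bars are group medians, and triangles are the 4 WT libraries whose sex transcripts went against the label. The triangles are the highest WT values for Cd79b, Cxcl13, Ltb and Pou2af1, whereas Bcl6 stays between 14.9 and 21.9 CPM in the 4 male Slfn3KO libraries.

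The chemokine axis of the follicle was led by the ligand. Cxcl13 (ENSMUSG00000023078, chromosome 5, 95956951 to 95961068, plus strand) averaged 9.57 RPKM, against 2.92 RPKM for its receptor Cxcr5. Cxcl13 was 2.06, 0.286, 3.38 and 0.241 CPM in female Slfn3KO 1 to 4 and 1.1, 8.67, 26 and 45.5 CPM in female WT 1 to 4. Cxcl13 was 0.18, 0.0397, 7.73 and 4.7 CPM in male Slfn3KO 1 to 4 and 0.767, 0.14, 61.2 and 14.1 CPM in male WT 1 to 4. Its level ran from 1 count in male Slfn3KO 2 to 1801 counts in male WT 3, and female WT 1 and male WT 1 and 2 lay among the Slfn3KO values. The log2 fold change was -3.16 over both sexes (standard error 1.12, unadjusted p = 0.0126, adjusted p = 0.333 by edgeR), -2.62 in labelled males and -3.77 in labelled females, and -0.10 over both sexes without the WT libraries 3 and 4. Cxcr4 (ENSMUSG00000045382, chromosome 1, 128588199 to 128592293, minus strand; 4.25 RPKM), which holds cells in the dark zone of a germinal centre, was 2.62, 0.695, 2.95 and 1.04 CPM in female Slfn3KO 1 to 4 and 1.15, 7.49, 21.2 and 23.4 CPM in female WT 1 to 4. Cxcr4 was 0.396, 1.03, 6.1 and 7.12 CPM in male Slfn3KO 1 to 4 and 0.6, 0.421, 39 and 7.77 CPM in male WT 1 to 4. Male Slfn3KO 3 and 4 were close to male WT 4, and male Slfn3KO 1 and 2 close to male WT 1 and 2. Its log2 fold change was -2.28 over both sexes (standard error 0.89, adjusted p = 0.336 by edgeR) and 0.26 without the WT libraries 3 and 4. Cxcr5 and Ccr7, the receptor that guides lymphocytes to the T cell zone, had -3.15 and -2.05, and 0.16 and 0.38 with the WT libraries 3 and 4 left out. Ccl19, a ligand of Ccr7, had at most 7 counts in any library (male Slfn3KO 3) and did not pass the filter.

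In the tumor necrosis factor family and costimulation group, Cd83, a marker of activated B cells and dendritic cells, and Ltb, the membrane-anchoring chain of lymphotoxin, were the most abundant per length (7.2 and 5.96 RPKM). Cd83 (ENSMUSG00000015396, chromosome 13, 43785107 to 43803130, plus strand) was 4.17, 3.6, 6.45 and 2.45 CPM in female Slfn3KO 1 to 4 and 4.07, 13, 35.6 and 50.3 CPM in female WT 1 to 4. Cd83 was 5.55, 2.93, 9.25 and 9.45 CPM in male Slfn3KO 1 to 4 and 2.44, 2, 79.5 and 16 CPM in male WT 1 to 4. All 4 Slfn3KO libraries were above WT 1 and 2 in labelled males, and female WT 1 was within the female Slfn3KO range. Ltb (ENSMUSG00000024399, chromosome 17, 35194439 to 35196320, plus strand) was 3.01, 2.08, 3.96 and 2.25 CPM in female Slfn3KO 1 to 4 and 5.02, 8.67, 22.2 and 25.3 CPM in female WT 1 to 4. Ltb was 1.04, 3.13, 5.43 and 7.45 CPM in male Slfn3KO 1 to 4 and 2.6, 2.49, 40.9 and 8.93 CPM in male WT 1 to 4. In labelled females the Slfn3KO libraries ended at 3.96 CPM and the WT libraries began at 5.02 CPM, and in labelled males the groups overlapped. Over both sexes the log2 fold change was -2.25 for Cd83 (standard error 0.69, adjusted p = 0.327 by edgeR) and -2.06 for Ltb (standard error 0.59, adjusted p = 0.327). Without the WT libraries 3 and 4, Cd83 turned to 0.07 and Ltb was -0.39. Lta, the partner of Ltb, the costimulatory receptor Cd40, and Tnfrsf13c, the receptor for the B cell survival factor BAFF, had -2.05, -1.88 and -2.71, and 0.11, 0.10 and 0.14 with the WT libraries 3 and 4 left out.

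Madcam1, the addressin by which vessels and follicle stroma bind lymphocytes, was 0.387, 0.409, 0.621 and 0.0802 CPM in female Slfn3KO and 0.251, 2.5, 2.61 and 7.09 CPM in female WT. It was 0.0721, 0.119, 3.92 and 0.95 CPM in male Slfn3KO and 0.167, 0.0701, 7.81 and 1.99 CPM in male WT. Male Slfn3KO 3 was the third highest of the 16 libraries, and the groups overlapped in both labelled sexes. For Madcam1 the log2 fold change over both sexes was -1.95 (standard error 0.97, adjusted p = 0.44 by edgeR). It was -0.03 over both sexes, 3.37 in labelled males and -1.89 in labelled females with the WT libraries 3 and 4 left out.

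Because most members shared their highest libraries, the bases before the start sites of the members were searched for 4 short motifs of B cell and lymphoid promoters. RefSeq promoters (GRCm38.p6, the assembly of mm10) matched 24 of the 32 members by symbol, all but Blk, Ccr7, Cd40, Cd79b, Cd83, Cxcr5, Ms4a1 and Mybl1. The 250 bases before the start were searched on both strands, in these and in 27025 promoters, 1 per symbol. The octamer ATGCAAAT was present in 2 members, Blnk and Mef2b, and in 1.61% of all promoters. A kappa B motif, GGG, any 2 bases, then TTTCC, was present in 2 members, Ltb and Madcam1, and in 378 of the 27025 promoters. The EBF motif, TCCC, any 2 bases, then GGGA, was in Cd22 and in 0.788% of promoters, and the ETS motif GAGGAAGT in Cd72 and in 2.44%. The last 3 motifs were chosen after the octamer matches were seen. Madcam1 and Ltb are shown because they share a motif, and Cd72 as the surface gene with most RNA left in male Slfn3KO 1. The stretches that lie before any exon of the deposited annotation are shown 5′ to 3′ with the motif in capitals. They are chr10:79664309-79664558 (plus strand, 250 bases), chr17:35194257-35194438 (plus strand, 182 bases) and chr4:43454629-43454876 (minus strand, 248 bases). Madcam1 holds the reverse complement of the kappa B motif at 2 places, from -83 to -74 and from -70 to -61 before the RefSeq start, which is where its stretch ends. Ltb holds the same reverse complement once, and Cd72 holds that of the ETS motif. For Ltb and Cd72 the stretch ends before the RefSeq start, at an exon of the deposited annotation. A match describes letters and was not tested as a binding site.
Madcam1: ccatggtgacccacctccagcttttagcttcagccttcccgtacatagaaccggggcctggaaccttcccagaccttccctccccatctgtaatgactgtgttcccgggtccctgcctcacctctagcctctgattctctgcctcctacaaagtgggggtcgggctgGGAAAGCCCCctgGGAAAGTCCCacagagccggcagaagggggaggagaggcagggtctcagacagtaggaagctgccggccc
Ltb: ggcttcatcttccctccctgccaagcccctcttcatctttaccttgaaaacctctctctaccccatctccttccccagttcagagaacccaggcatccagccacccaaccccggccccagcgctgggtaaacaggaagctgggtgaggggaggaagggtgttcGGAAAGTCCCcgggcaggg
Cd72: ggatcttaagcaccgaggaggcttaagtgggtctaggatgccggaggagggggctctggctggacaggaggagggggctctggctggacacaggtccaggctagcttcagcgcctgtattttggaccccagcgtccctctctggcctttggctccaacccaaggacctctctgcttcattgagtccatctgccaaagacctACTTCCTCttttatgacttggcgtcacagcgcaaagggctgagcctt

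Levels of genes relative to Ms4a1 also differed between mice. Reads of a gene were counted per 100 reads of Ms4a1 in the 9 libraries with at least 100 counts of Ms4a1. This measure was chosen after the values were seen. Its exact (Clopper-Pearson) 95% binomial intervals cover counting error only. Pax5 ranged from 53.5 (interval 49.6 to 57.8) in female WT 3 to 67.2 (interval 56.2 to 80.2) in male Slfn3KO 3. The 2 male Slfn3KO libraries with follicle RNA stood apart from each other for other genes. Fcer2a, which is carried by resting follicular B cells, was 25.7 (interval 21.2 to 31) in male Slfn3KO 4 and 50.2 (interval 41.2 to 60.9) in male Slfn3KO 3. Ighd, the antibody chain of the same resting cells, was 62.6 (interval 54.4 to 71.8) and 166 (interval 144 to 192). Cr2 was 36.7 (interval 31 to 43.3) and 57.7 (interval 47.9 to 69.5) in the same order. Of the germinal centre genes, Mybl1 was 31.8 (interval 26.7 to 37.9) in male Slfn3KO 4 and 23.7 (interval 18.1 to 30.5) in male Slfn3KO 3, with overlapping intervals. Gcsam was 22.3 (interval 18.2 to 27.3) and 11.7 (interval 8.07 to 16.4), without overlap, and S1pr2 was 19.6 (interval 15.7 to 24.1) and 23.3 (interval 17.9 to 30.2), with overlap, in the same order of libraries.

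Members made by stroma differed as well. Cxcl13 was 18.4 (interval 14.7 to 22.9) reads per 100 of Ms4a1 in male Slfn3KO 4 and 69.1 (interval 57.9 to 82.3) in male Slfn3KO 3, and the other 7 libraries lay between 32.8 and 51.3. Madcam1 was 3.72 (interval 2.26 to 5.81) in male Slfn3KO 4 and 35 (interval 27.9 to 43.6) in male Slfn3KO 3, the latter above every other library, of which female WT 2 was next with 11.5 (interval 8.66 to 15.1). Among the WT libraries, Fcer2a was 26.9 (interval 24.4 to 29.6) in female WT 3 and 49.9 (interval 46.2 to 53.8) in female WT 4, although their Ms4a1 levels were 79.5 and 88.7 CPM. Other tissue also differed between male Slfn3KO 3 and 4. Their 6 muscle genes summed to 56.7 and 6.79 CPM, and their 5 endothelial genes to 18.7 and 5.6 CPM. Madcam1 was 6.3 in male WT 4, with a muscle sum of 112 CPM. It was 5.47 in male WT 3, with an endothelial sum of 27.5 CPM. The part of such tissue in the ratios was not tested. These are single libraries, and no group difference was computed from the ratios.

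**Figure D4:**
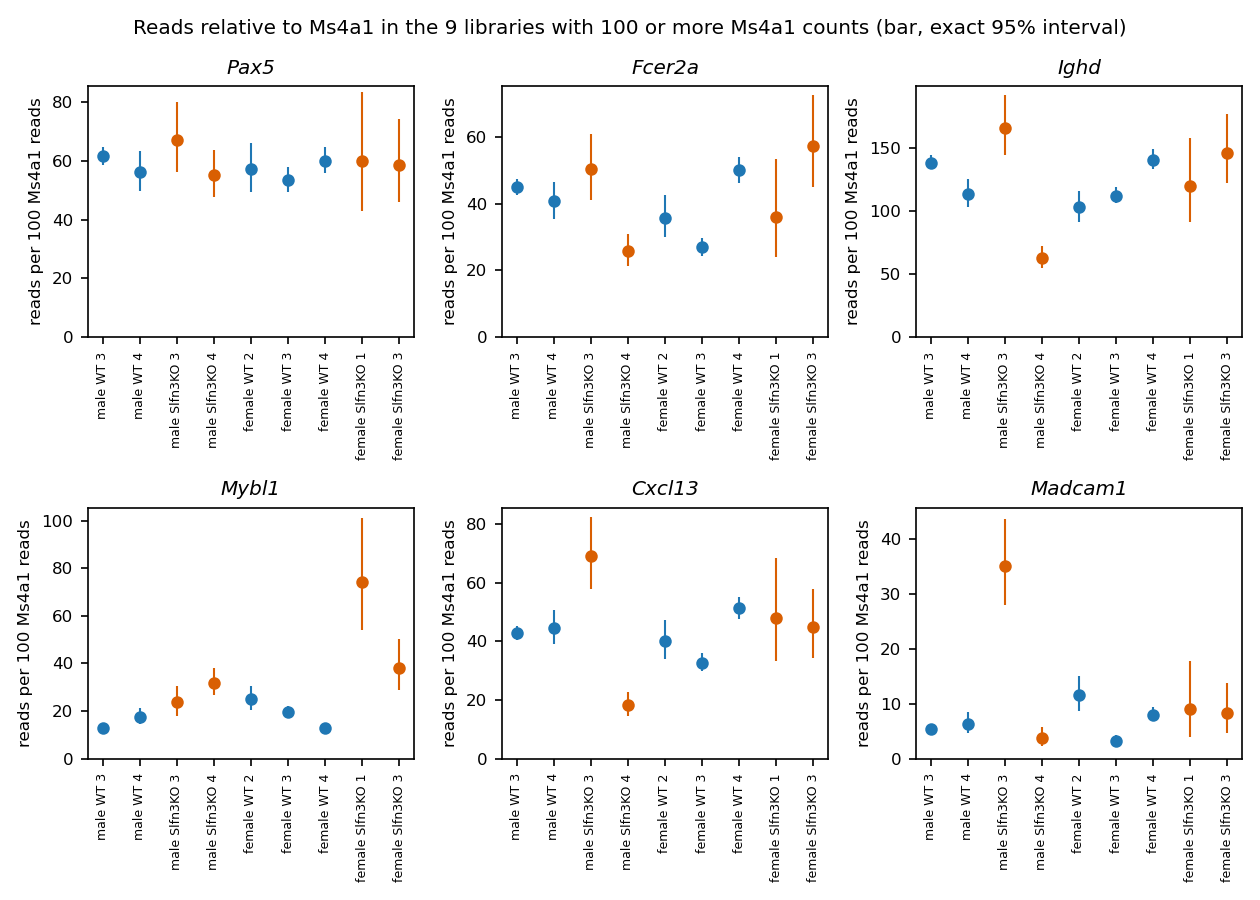
Reads of 6 genes per 100 reads of Ms4a1 (vertical axis) in the 9 libraries with at least 100 counts of Ms4a1 (blue, WT; orange, Slfn3KO); bars are exact 95% binomial intervals. Pax5 lies between 53.5 and 67.2 in all 9 libraries, while Madcam1 stands at 35 in male Slfn3KO 3 and at 11.5 or less in the other libraries.

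Other genes of the same pathways were taken from fixed lists, and edgeR called none of them in any of the 3 comparisons of genotype. Of 18 further genes of B cell receptor signalling, 10 were lower and 0 higher at an unadjusted p under 0.05 over both sexes, where 7.10% of all genes tested were lower and 4.84% higher. Cd81, a membrane protein of B cells and many other cells, was the most abundant of them per length and had the highest log2 fold change (0.13). Of 21 further germinal centre and B cell identity genes, 15 were lower and 0 higher against the same shares, from -3.18 for Ighd to 0.11 for Rgs13, a regulator of G protein signalling. Ighm, the most abundant of them per length, was 4.9, 5.75, 410 and 86.6 CPM in male WT and 2.67, 5.79, 48.8 and 49.8 CPM in male Slfn3KO, with 12.7, 65.4, 214 and 275 CPM in female WT and 15.3, 6.91, 26.6 and 7.86 CPM in female Slfn3KO. DESeq2 called 0 genes of both lists over both sexes and in labelled males, and in labelled females 6 and 16. By edgeR in labelled males, 0 genes of either list had an unadjusted p under 0.05, against 3.84% of genes. With the WT libraries 3 and 4 left out the medians of these lists were 0.02 and -0.02, and Ighd was 0.31. By the unadjusted rule 1 and 0 of their genes were then lower, and 1 of each list was higher. Over all genes 468 were lower and 408 higher, of 15093. Their medians in that setting were 0.22 and 1.16 in labelled males and -0.28 and -0.76 in labelled females. Ighd was 3.87 in labelled males and -1.41 in labelled females.

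Among 15 further stroma and lymphoid chemokine genes, 4 were lower and 0 higher at an unadjusted p under 0.05, against 7.10% and 4.84% of all genes. Their log2 fold changes ran from -2.37 for Clu, which follicular dendritic cells express strongly, to 0.96 for the T cell zone chemokine Ccl21a, and their most abundant gene per length was the widely expressed receptor Tnfrsf1a (-0.16). Clu was 4.27, 1.33, 175 and 40.2 CPM in male WT and 3.1, 1.51, 42 and 17.3 CPM in male Slfn3KO. It was 4.82, 39.7, 61.7 and 127 CPM in female WT and 9.41, 3.11, 14.4 and 2.65 CPM in female Slfn3KO. Male Slfn3KO 3 had more Clu than male Slfn3KO 4, as it had for Cxcl13 and Madcam1 among the members, although its Ms4a1 was lower. Once the WT libraries 3 and 4 were left out, 0 stroma genes were lower and 0 higher by that rule over both sexes. The median turned from -0.16 to 0.12, and Clu was -0.07. By labelled sex in that setting, the median was 0.87 in males and -0.24 in females. Clu was 2.51 in labelled males and -1.60 in labelled females.

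Markers of other cells were set beside the members. The 7 T follicular helper genes summed to 11.2, 14.6, 25.6 and 31 CPM in female WT and 12.5, 11.2, 41.1 and 16.9 CPM in male WT, and to 16.3, 16.5, 13.3 and 11.9 CPM in female Slfn3KO and 15.1, 10.6, 18.7 and 13.7 CPM in male Slfn3KO. The 3 highest sums were in male WT 3, female WT 4 and female WT 3, the 3 libraries with most follicle RNA, and 4 of the 5 genes tested were lower and 0 higher at an unadjusted p under 0.05, against 7.10% and 4.84% of all genes (from -1.69 for Pdcd1 to 0.09 for Cd200, the most abundant). The 12 general T cell genes did not keep that order, with sums of 256, 62.2, 178 and 141 CPM in female WT and 127, 127, 228 and 133 CPM in male WT, and of 66.4, 94.9, 162 and 103 CPM in female Slfn3KO and 57.4, 150, 109 and 138 CPM in male Slfn3KO. Female WT 1, which had little follicle RNA, had the highest T cell sum. By the same rule 4 of the 12 genes were lower and 0 higher (from -2.06 for Cd2 to -0.28 for Cd3e, with Cd3g the most abundant). Cd2 itself was highest in male WT 3, female WT 4 and female WT 3 (14.3, 9.5 and 8.94 CPM). Cd3e was highest in female WT 1 (28.3 CPM). With the WT libraries 3 and 4 left out, 0 genes of either list had an unadjusted p under 0.05, and the medians moved from -1.60 to -0.10 for T follicular helper genes and from -0.60 to -0.36 for T cell genes. DESeq2 called 1 gene of these lists over both sexes, Tox2, and the part of any cell type in the members' values was not tested.

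M cells cover follicles and sample the gut lumen. Their list of 8 genes summed to 250, 184, 405 and 339 CPM in female WT and 237, 201, 415 and 207 CPM in male WT, and to 270, 243, 200 and 244 CPM in female Slfn3KO and 145, 211, 247 and 248 CPM in male Slfn3KO, with Pglyrp1 the most abundant per length. The defining gene of mature M cells, Gp2, was 0.552, 7.11, 5.84 and 13.5 CPM in female WT and 0.234, 0.14, 10.5 and 5.36 CPM in male WT. It was 0.516, 0.204, 0.971 and 0.0802 CPM in female Slfn3KO and 0.216, 0.0793, 0.6 and 0.095 CPM in male Slfn3KO. The 5 WT libraries with most Ms4a1 were the 5 highest for Gp2, whereas male Slfn3KO 4, with 537 counts of Ms4a1, had 2 counts of Gp2. Per 100 reads of Ms4a1, Gp2 was 5.36 and 0.372 in male Slfn3KO 3 and 4, and 12 and 12.9 in female Slfn3KO 1 and 3. The WT libraries had 7.32 and 16.9 in male WT 3 and 4, and 32.9, 7.35 and 15.2 in female WT 2 to 4. The genotypes overlapped in labelled females, whereas in labelled males both Slfn3KO values were below both WT values, and the interval of Slfn3KO 3 (3.08 to 8.72) held the value of WT 3. The log2 fold change of Gp2 over both sexes was -3.94 (standard error 0.87, adjusted p = 0.327 by edgeR), and -1.85 without the WT libraries 3 and 4. In the list, 3 genes were lower and 0 higher at an unadjusted p under 0.05, against 7.10% and 4.84% of all genes, and Ccl9 had the highest value (0.18), while DESeq2 called 2, Gp2 and Sox8. By edgeR without the WT libraries 3 and 4, 0 of the 7 genes tested passed that rule over both sexes. The median turned from -0.71 to 0.16. Among labelled females in that setting 1 gene was lower, Gp2 (-3.11, unadjusted p = 0.021 by edgeR), and 1 was higher. Of all genes, 1730 and 1778 of 14634 were lower and higher there. Gp2 was not tested in labelled males, where 0 genes of the list passed.

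The summed RNA of plasma cells, the antibody-secreting descendants of follicle B cells, was not ordered like the members. Mzb1, however, was highest in male WT 3, female WT 3 and female WT 4 (24.8, 22.4 and 19.6 CPM), the libraries with most follicle RNA. Its lowest level was in male Slfn3KO 1 (0.793 CPM). Of the 9 plasma cell genes 0 passed an unadjusted p under 0.05 over both sexes, from -1.05 for Mzb1 to 0.54 for Igha. Their summed level ranged from 997 CPM in male Slfn3KO 1 to 6641 CPM in male Slfn3KO 3, with Igkc the most abundant gene per length. Of 10 macrophage and dendritic cell genes 1 was lower and 0 higher, against 7.10% and 4.84% of all genes, between -1.38 for Flt3 and 0.12 for Cd209a. Of 10 epithelial genes 0 were lower and 1 was higher, Krt18 (0.24), against the same shares, with Lct lowest (-1.68) and Fabp6 most abundant (-0.24). None of the 6 muscle genes (from 0.03 for Des to 0.99 for Cnn1), the 5 endothelial genes (from -0.83 for Pecam1 to 0.66 for Emcn), the 1 fat gene of 4 that could be tested (Cidec, -0.44) or the 8 proliferation genes (from 0.13 for Aurka to 0.32 for Bub1, with Ccnb2 most abundant) passed an unadjusted p under 0.05 over both sexes. In labelled females 6 of the 8 proliferation genes were higher and 0 lower by that rule, against 8.58% and 8.56% of genes, whereas in labelled males all 8 had a log2 fold change under 0 (median -0.27) and 0 passed it. With the WT libraries 3 and 4 left out, 8 were higher in labelled females, as were 1778 of 14634 genes, and 7 lower in labelled males, as were 547 of 14551 genes. In that setting edgeR called 2 of the 8 for the difference between the sexes, against 2.38% of genes. The 8 proliferation genes summed to 143, 308, 458 and 270 CPM in female WT and 610, 525, 396 and 451 CPM in female Slfn3KO. Female WT 1 was the lowest library, and female WT 3 lay within the female Slfn3KO range. Male WT had 461, 422, 333 and 172 CPM, and male Slfn3KO 265, 259, 369 and 261 CPM. By labelled sex, all 5 muscle genes tested in females were above 0 (median 1.56). Of these, Actg2 (3.25) had an unadjusted p under 0.05, where 8.58% of genes were higher. All 6 in labelled males were under 0 (median -0.84), and 0 passed. For the difference between the labelled sexes 2 were positive by that rule, as were 5.80% of genes. Without the WT libraries 3 and 4 the medians were 2.17 in females and 1.24 in males, and 0 passed in either sex. Acta2, the most abundant muscle gene, was highest in male WT 4 (21.3 CPM) and female Slfn3KO 2 (18.9 CPM), which had 31.7 and 0.49 CPM of Ms4a1.

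**Figure D5:**
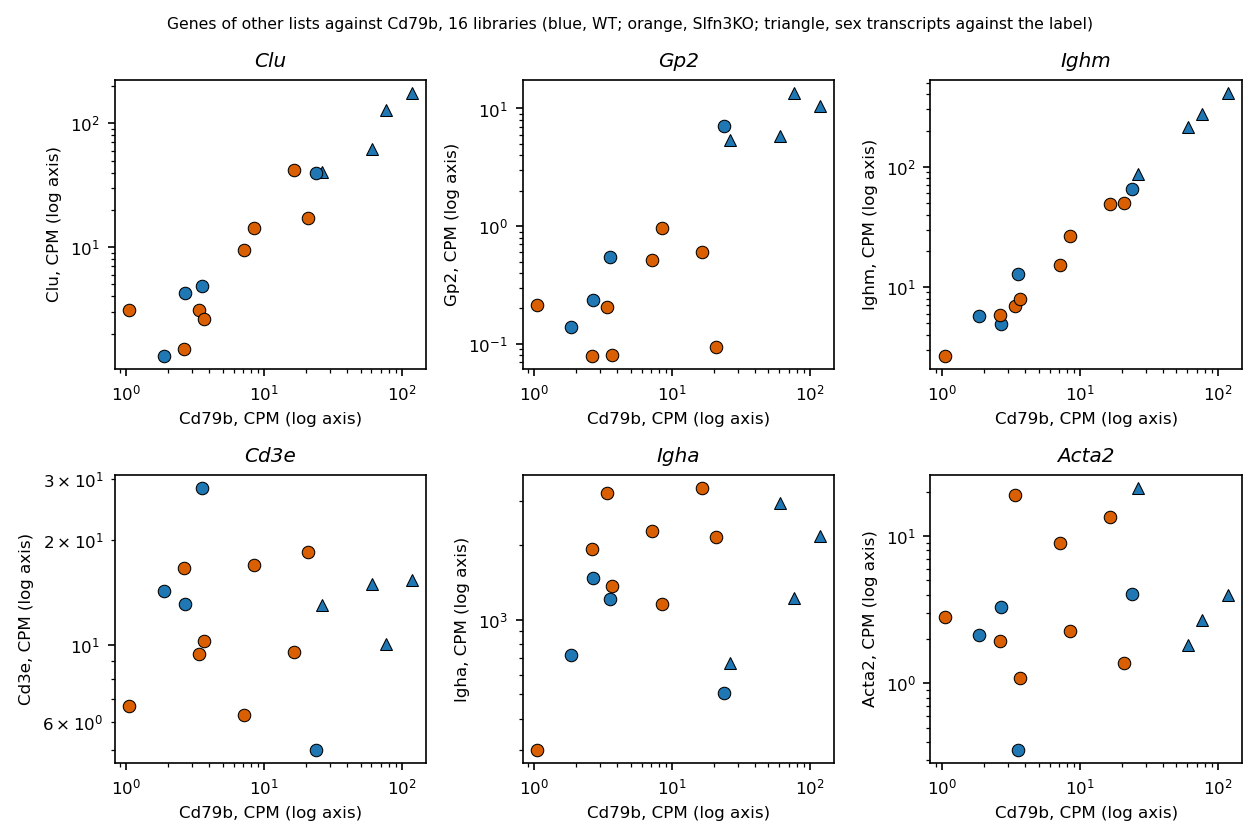
CPM of Clu, Gp2, Ighm, Cd3e, Igha and Acta2 (vertical axes, log) against CPM of Cd79b (horizontal axis, log) in the 16 libraries (blue, WT; orange, Slfn3KO; triangles, the 4 WT libraries whose sex transcripts went against the label). Ighm and Clu run from low to high along with Cd79b, Gp2 is above 5 CPM in 5 WT libraries and below 1 CPM elsewhere, and Cd3e, Igha and Acta2 are scattered.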

How the data were processed

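RNA from the ileum mucosa of 16 mice was sequenced as stranded single reads. The authors deposited a table of raw read counts per gene, made with STAR and featureCounts 1.4.6 on mm10, with DESeq2 1.22.2 named in their notes. Of 46078 gene identifiers, 45143 matched a symbol. Libraries held between 20823279 and 30813117 counts. Counts were scaled with TMM factors, filtered with filterByExpr and fitted over all genes with edgeR 4.0.16 (quasi-likelihood F test, robust), with labelled sex as covariate where both sexes were used. P-values were adjusted by Benjamini-Hochberg over all genes tested, and a gene was called at an adjusted p under 0.05 and at least 1.5-fold. DESeq2 1.42.0, RLE factors, other filters, a replicate block, no sex covariate and left-out libraries served as alternatives. The fit was tested on simulated data. Replicate numbers are not stated to mark shared animals or litters. Deviations from the group means of libraries with the same number correlated by 0.211, 0.317, 0.524 and 0.16 in males. In females they correlated by -0.429, 0.137, -0.396 and -0.0791. Libraries with unlike numbers were not correlated, so these values cannot show that the numbers pair mice. The block served only as an alternative. RPKM used exon lengths. A floor of 3 counts (0.1 to 0.151 CPM) and all intervals cover counting error only.

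Full values were given, in each of the 5 role groups, for the 2 members most abundant per length, and for the members with the largest and smallest log2 fold change over both sexes. From the other lists the most abundant gene and the genes with the largest and smallest log2 fold change were named, with some left out. Other genes that are named, such as Ms4a1, Cr2, Fcer2a, Cd72, Mybl1, Madcam1, Gcsam and S1pr2, were chosen after their values were seen. The members and lists were chosen with earlier results of these data known.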

Additional observations from a re-analysis of the deposited data

Results flagged for a closer look

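Among the 40 groups of 4 libraries examined for the 10 named members, 2 held a library far from the other libraries of its group, and chance alone gives about 1 in 20 groups. Blnk was 54.5 CPM in male WT 3, with a gap to the next male WT library of 0.917 of the group's range. Ltb was 40.9 CPM in male WT 3, with a gap of 0.832 of the range. The cause was not tested. Male WT 3 is also one of the 4 WT libraries whose sex transcripts went against the label.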

How the results depend on the processing

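Genes called over both sexes, in labelled males, in labelled females and for the difference between them were 0 by edgeR's test, and 55, 14, 506 and 24 by DESeq2. At an unadjusted p under 0.05 and at least 1.5-fold they were 984, 272, 1366 and 946. With the WT libraries 3 and 4 left out the difference gave 359, and leaving out any single library gave 0 in all 4 comparisons.

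With the WT libraries 3 and 4 left out, the members' median log2 fold change was 0.17 over both sexes, 2.84 in labelled males and -1.28 in labelled females, and 0, 2 and 2 members had an unadjusted p under 0.05, against 5.80%, 7.14% and 24.0% of genes. The log2 fold change over both sexes then turned for Cd79b (0.07), Cd79a (0.23), Blnk (0.28), Pou2af1 (0.18), Cxcr4 (0.26) and Cd83 (0.07). Leaving out each library in turn gave medians from -2.84 to -1.63, from -2.64 to 0.01 and from -3.40 to -2.48, with 2 to 29, 0 to 2 and 27 to 29 members at an unadjusted p under 0.05. Over all genes those fits gave from 1287 of 14997 to 2560 of 15065 genes over both sexes, and 2.40% to 7.46% and 8.57% to 26.0% in labelled males and females. With at least 10 counts in every library, 10 of 12 members over both sexes and 18 of 19 in labelled females had an unadjusted p under 0.05, against 11.1% of 12360 and 17.8% of 12557 genes.

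The mean correlation of libraries that share a replicate number was 0.303 in males and -0.192 in females. With the replicate as a block, 0 genes were called in all 4 comparisons, the medians were -1.74, -1.05 and -2.57, and 25, 7 and 21 members had an unadjusted p under 0.05, against 10.9%, 6.63% and 9.29% of genes. By DESeq2, Ltb passed the threshold over both sexes (adjusted p = 0.0369, with up to 0.824 under the alternatives). The cause of these shifts was not tested.

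Bulk RNA gives no count of cells or follicles, members near the floor are measured by a few counts, and labelled sex and the sex transcripts disagree in 4 WT libraries. In these 4 the transcripts were those of the other sex, so each labelled WT group held libraries of both kinds. How this arose, by mislabelled or exchanged libraries or otherwise, was not tested.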
